A study of Homo sapiens with 7 samples.

Results

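Integrins are paired cell surface receptors, 1 α and 1 β subunit each, that hold cells to the extracellular matrix and pass force to the actin cytoskeleton. Laminins are cross-shaped trimers of an α, a β and a γ chain that form the sheet of the basement membrane, and several integrins bind them. In the alveolus this pairing anchors epithelial cells, and αv integrins also release active TGF-β from its latent complex. The genes described are all those whose symbol starts with ITGA or ITGB, or is LAMA, LAMB or LAMC with a digit. The rule found 37 of 14535 genes: 16 integrin α subunits, 8 integrin β subunits, 10 laminin chains, and 3 genes for proteins that bind integrin tails or were first found that way, ITGB1BP1, ITGB1BP2 and ITGB3BP. The remaining integrin and laminin genes were not analysed here.

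Expression was measured in A549 cells, a human lung adenocarcinoma line of epithelial type, after either of 2 treatments. In 4 libraries (stretch libraries 4 to 7) the cells had undergone cyclic stretch for 24 h, with 15% elongation at 15 cycles per min. In 3 libraries (doxorubicin libraries 1 to 3) they had received doxorubicin, a topoisomerase II poison, at 100 nM for 24 h. In both groups β-galactosidase, whose staining marks senescent cells, was assessed after 6 days, and RNA came from the sorted positive cells, so neither group is an untreated control and each difference is relative. A549 is a single tumour line, so the data hold no other donor or normal lung cell. Nothing in the labels says that the replicates were separate cultures. The p-values therefore measure only how much these libraries vary, and part of that may be technical.

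Libraries held 5636386 to 7419778 counts after stretch and 2611739 to 4644250 counts after doxorubicin. EIF4A2 alone took 1.67% to 2.87% of the counts in the stretch libraries and 10.8% to 30.6% in the doxorubicin libraries. Log-CPM correlated at 0.939 to 0.978 between stretch libraries and at 0.754 to 0.884 between doxorubicin libraries. Levels are given as CPM, counts scaled to a common library size with TMM factors, and 3 counts, taken as detection, were worth 0.321 to 0.401 CPM in stretch libraries and 0.567 to 2.59 CPM in doxorubicin libraries. Each gene was read through its own PCR amplicons, so levels of different genes are not compared with each other. All 6 epithelial markers had counts, with summed levels of 2053 to 2394 CPM after stretch, against 3281 to 6767 CPM after doxorubicin. The keratin genes KRT7, KRT8 and KRT18 made up most of that sum, and the 6 markers did not lie on 1 side. EPCAM stood at 10.2 to 14.6 CPM after stretch, against 0.865 to 4.54 CPM after doxorubicin (log2 fold change 1.79, edgeR adjusted p = 0.0574). Its 0.865 CPM, in doxorubicin library 2, rest on 1 count, below detection. The groups overlapped for KRT8, KRT19 and CDH1 (log2 fold changes of -0.44, 0.21 and -0.066), and KRT7 did not pass (log2 fold change -1.07). Of 8 leukocyte markers 3 had a row (LYZ, CD14 and TYROBP), with sums of 38.7 to 41.4 CPM after stretch, against 29.4 to 54.6 CPM after doxorubicin, while PTPRC and CD3E were not analysed here. The 6 fibroblast markers with a row summed to 15.5 to 16.8 CPM after stretch, against 18.7 to 45.0 CPM after doxorubicin, and of 6 endothelial markers CDH5 alone had one, at 0 to 0.963 CPM after stretch and 0 in each doxorubicin library. The part of these cell types in the results was not tested, and in such bulk RNA fewer cells of a type and less RNA per cell cannot be told apart.

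A single member, the integrin subunit ITGA3, passed the test between the groups, lower after stretch than after doxorubicin. Of the 37 members, 29 had enough counts to be tested, and 28 of these stayed above the threshold of 0.05 on the adjusted p (edgeR, quasi-likelihood F-test). In the same fit 2.32% of all 11230 tested genes passed, 0.356% higher and 1.97% lower after stretch, and 1 of 29 members is close to that background. With an unadjusted p under 0.05 there were 11 members, where 23.2% of all tested genes met that mark. The fitted log2 fold changes (stretch minus doxorubicin) were above 0 in 14 and below 0 in 15 members, with a median of -0.13, beside 51.2% above 0 and a median of 0.021 over all tested genes. The members ran from -2.50 for ITGA11 to 2.35 for ITGA10, both genes of few counts. With members on either side, the family showed no common direction. The group ranges of CPM did not overlap in 9 tested members, 4 with stretch above and 5 with doxorubicin above, where 21.4% of all tested genes did not overlap, 11.5% with stretch above and 9.88% with doxorubicin above.

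**Figure D1:**
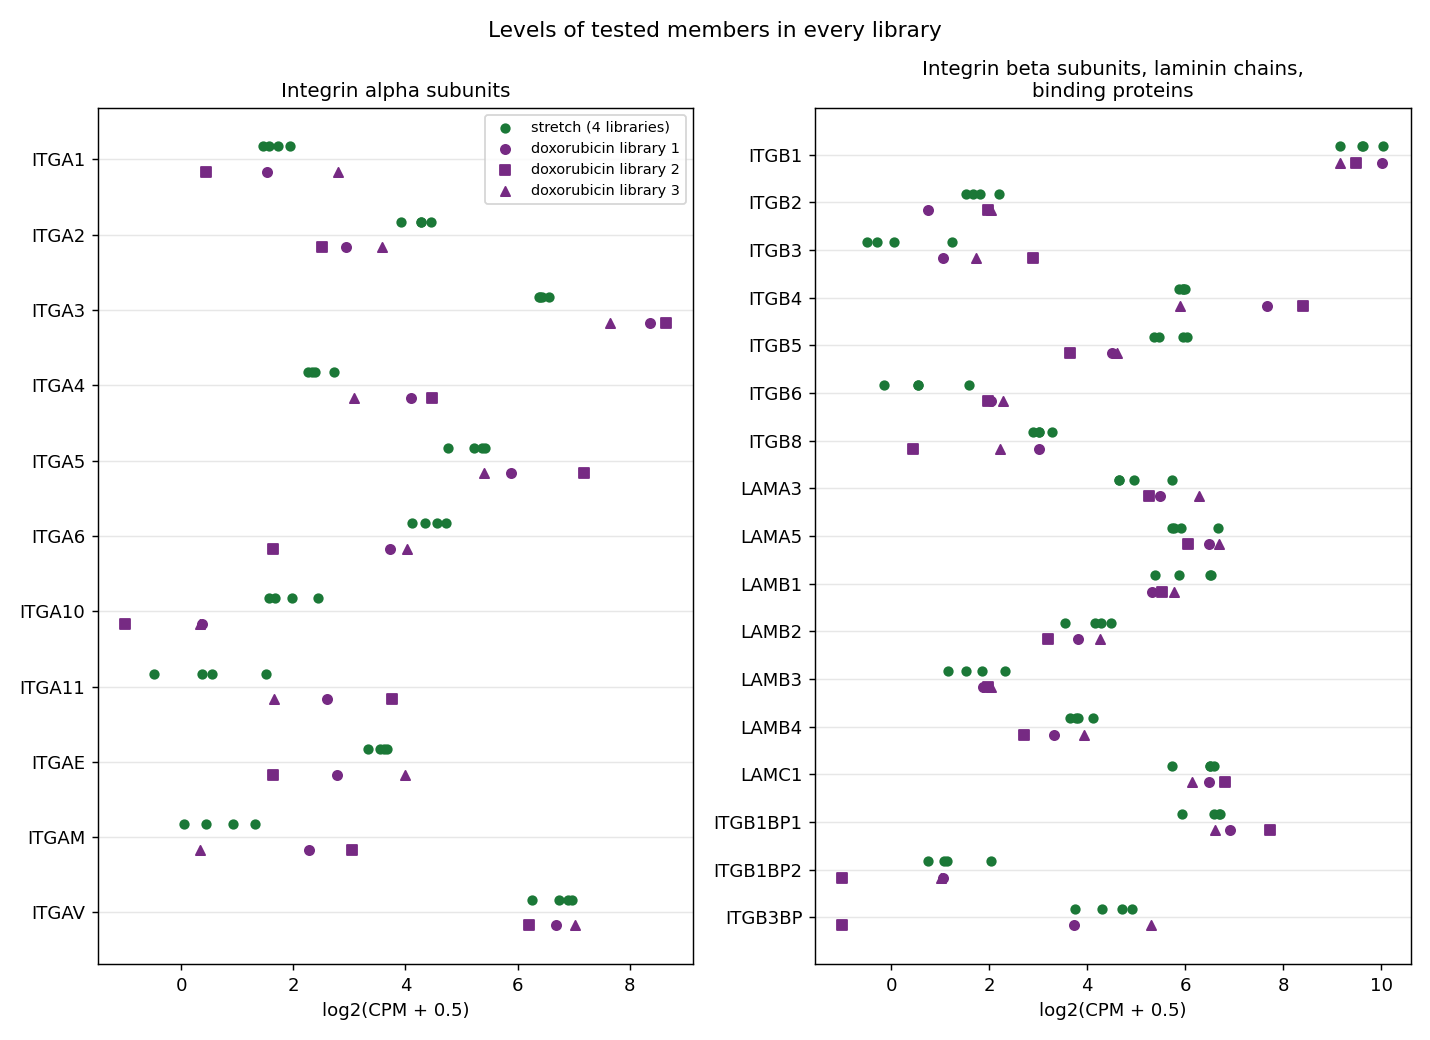
Level of 28 of the 29 tested members, as log2(CPM + 0.5) on the horizontal axis, with 1 point per library (stretch above doxorubicin in each row). For ITGA3 all 3 doxorubicin points lie above the stretch points, while for ITGB4 doxorubicin library 3, at 59.2 CPM, lies within the stretch range of 57.8 to 63.1 CPM.

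**Figure D2:**
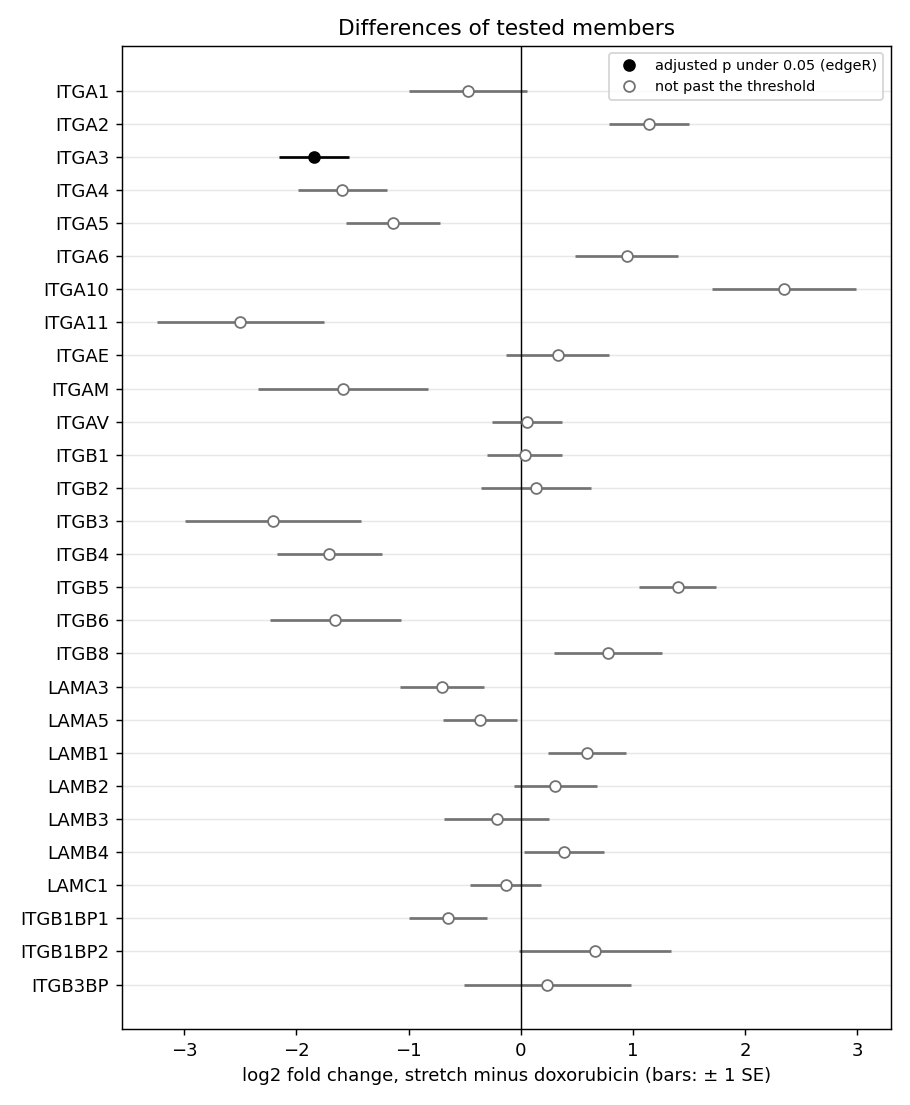
Fitted log2 fold change of 28 of the 29 tested members, stretch minus doxorubicin, with bars of 1 standard error. Only ITGA3, the filled point at -1.84, had an adjusted p under 0.05 by edgeR.

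ITGA3 codes the α3 subunit, which pairs with β1 into a receptor for epithelial laminins (chromosome 17, 50055968 to 50090481, plus strand, GENCODE 29 on GRCh38). It stood at 93.2, 83.7, 85.5 and 82.8 CPM in stretch libraries 4 to 7, against 329, 401 and 199 CPM in doxorubicin libraries 1 to 3. Every doxorubicin library lay above every stretch library, and the stretch libraries were close to each other. The group means were 86.3 ± 4.72 CPM after stretch (SD, n = 4), against 310 ± 103 CPM after doxorubicin (SD, n = 3). The log2 fold change was -1.84 (SE 0.31, adjusted p = 0.0199 by edgeR's quasi-likelihood test), a 3.58-fold higher level after doxorubicin. Its direction was the same in all 18 alternatives, and it passed in 11 of them. It did not pass without stretch library 4, 5, 6 or 7 or without doxorubicin library 1 (adjusted p from 0.0598 to 0.117 by edgeR), nor when library 3 stood alone for doxorubicin (log2 fold change -1.19, adjusted p = 0.0551 by edgeR). Scaled by library totals alone its log2 fold change was -0.96 (adjusted p = 0.14 by edgeR). In that scaling the median of all genes lay at 0.71, and relative to it ITGA3 stood at -1.67. Of the 6 epithelial markers, KRT18 alone passed, on the same side as ITGA3, at 460 ± 46.5 CPM after stretch (SD, n = 4), against 2116 ± 956 CPM after doxorubicin (SD, n = 3, edgeR adjusted p = 0.0199), while EPCAM lay on the other side, and the part of these markers in the ITGA3 difference was not tested.

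The α6 subunit, another laminin-binding α subunit, lay on the opposite side. ITGA6, which pairs with β1 or with β4, stood at 16.8, 19.9, 23.2 and 25.8 CPM after stretch, against 12.7, 2.59 and 15.9 CPM after doxorubicin. The stretch libraries were all above the doxorubicin libraries, by little in the case of library 3, and the difference did not pass (log2 fold change 0.95, SE 0.46, edgeR adjusted p = 0.241). The 2.59 CPM of doxorubicin library 2 rest on 3 counts, and without that library the log2 fold change was 0.58. ITGA7, the muscle laminin receptor subunit, had at most 10 counts in any library and was not tested. Set against ITGA3 in the same library, a ratio that needs no scaling factor, ITGA6 had 0.181, 0.238, 0.272 and 0.312 counts per ITGA3 count after stretch and 0.0392, 0.00753 and 0.0804 after doxorubicin. The log2 ratio was 3.10 higher after stretch, and 2.13 higher without doxorubicin library 2. Since the CPM of the 2 genes were already separated in opposite directions, this ratio describes them and is no further test.

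Among the α subunits of collagen receptors, those with β1 as their partner, the levels lay in opposite directions. ITGA2, the α2 subunit of a receptor for fibrillar and network collagens, stood at 14.7, 18.9, 18.9 and 21.4 CPM after stretch, against 7.15, 5.19 and 11.5 CPM after doxorubicin. The groups did not overlap, but the difference did not pass (log2 fold change 1.14, SE 0.36, edgeR adjusted p = 0.101). ITGA10, known from cartilage, had 37, 23, 25 and 32 counts after stretch and 2, 0 and 4 counts after doxorubicin (log2 fold change 2.35, SE 0.64, edgeR adjusted p = 0.073). Detection in doxorubicin library 2 began at 2.59 CPM, inside the ITGA10 stretch range of 2.46 to 4.94 CPM, so that library could hardly show the stretch level. ITGA11, known from fibroblasts, stood on the other side, at 0.801, 0.963, 0.216 and 2.37 CPM after stretch and 5.56, 13.0 and 2.65 CPM after doxorubicin. Its lowest doxorubicin value lay just above its highest stretch value (log2 fold change -2.50, SE 0.74, edgeR adjusted p = 0.0876). Its log2 fold change was -1.82 without doxorubicin library 2, and -1.25 when library 3 stood alone for doxorubicin. ITGA1, the α1 subunit, overlapped, at 2.26 to 3.34 CPM after stretch, against 0.865 to 6.43 CPM after doxorubicin. The 0.865 CPM, in doxorubicin library 2, rest on 1 count, below detection.

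Subunits of fibronectin and vitronectin receptors had levels that overlapped or differed without passing. ITGAV, the αv subunit shared by several TGF-β activating receptors, stood at 75.6, 119, 106 and 125 CPM after stretch, against 102, 73.5 and 129 CPM after doxorubicin. The ranges lay over each other, with a log2 fold change of 0.057 (SE 0.31). ITGA5, the α5 subunit of the fibronectin receptor, stood at 26.7, 42.2, 40.8 and 37.0 CPM after stretch, against 58.8, 145 and 41.6 CPM after doxorubicin. Its log2 fold change of -1.14 (SE 0.42, edgeR adjusted p = 0.14) was -0.44 without doxorubicin library 2, and -0.17 when library 3 stood alone for doxorubicin. ITGA8 and ITGA2B, the α subunits of a nephronectin receptor and of the platelet fibrinogen receptor, had at most 10 and 20 counts in any library and were not tested. Of 4 platelet markers, PPBP and PF4 had a row. PPBP was lower after stretch, at 0.602 ± 0.603 CPM (SD, n = 4) against 5.78 ± 1.05 CPM after doxorubicin (SD, n = 3, adjusted p = 0.0401 by edgeR). In that fit 2.32% of all tested genes passed. PPBP had 10, 8, 1 and 1 counts after stretch and 13, 6 and 37 after doxorubicin, so some stretch values lay below detection. PF4 overlapped between groups and did not pass (log2 fold change -0.96, edgeR adjusted p = 0.297). PF4 and PPBP together summed to 1.61 to 6.14 CPM after stretch, against 8.65 to 13.1 CPM after doxorubicin.

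None of the α subunits best known from leukocytes passed the test. ITGA4, the α4 subunit that binds VCAM1 and fibronectin, stood at 6.14, 4.71, 4.54 and 4.30 CPM after stretch, against 16.7, 21.6 and 7.94 CPM after doxorubicin. All doxorubicin libraries lay above the stretch libraries, and the difference did not pass (log2 fold change -1.59, SE 0.40, edgeR adjusted p = 0.0605), with a log2 fold change of -0.68 when library 3 stood alone for doxorubicin. ITGAE, the α subunit that binds E-cadherin, stood at 9.63 to 12.2 CPM after stretch, against 2.59 to 15.3 CPM after doxorubicin. Its exons share 505 bases with those of HASPIN and AC116914.1 on the opposite strand. Strand use in counting is not given in the sources used here, so reads of these genes cannot be told apart there. ITGAM, an α subunit of myeloid cells, had 5 to 15 counts after stretch and 4 to 11 counts after doxorubicin, and its log2 fold change of -1.59 turned to 0.65 with doxorubicin library 3 alone. ITGAX had at most 14 counts in any library and was not tested. ITGA9, not counted in this group, had at most 6 counts in any library and was not tested either.

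Of the β subunits, ITGB1, the common partner of most α subunits named here, did not differ beyond the spread of its libraries. It stood at 568, 776, 787 and 1053 CPM after stretch, against 1037, 719 and 572 CPM after doxorubicin, with a log2 fold change of 0.038 (SE 0.33). The ranges were almost the same. ITGB4 codes β4, which pairs with α6 in hemidesmosomes and reaches keratin filaments through a long tail (chromosome 17, 75721328 to 75757818). It stood at 61.0, 63.1, 61.4 and 57.8 CPM after stretch, against 201, 338 and 59.2 CPM after doxorubicin. Doxorubicin libraries 1 and 2 lay far above the stretch range and library 3 lay inside it. The difference did not pass with all libraries (log2 fold change -1.71, SE 0.47, edgeR adjusted p = 0.0741), and it was -1.08 without doxorubicin library 2, -2.11 without doxorubicin library 3 (adjusted p = 0.000536 by edgeR) and 0.056 with that library alone. Its count per ITGB1 count ran from 0.0549 to 0.107 after stretch and was 0.194, 0.471 and 0.104 after doxorubicin, and the groups overlapped.

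The β partners of αv stood on both sides. ITGB5, whose β5 subunit binds vitronectin, stood at 40.3, 43.7, 61.2 and 64.9 CPM after stretch, against 22.2, 12.1 and 24.0 CPM after doxorubicin. The groups did not overlap (log2 fold change 1.40, SE 0.34, edgeR adjusted p = 0.0578), and the log2 fold change was 1.14 with doxorubicin library 3 alone. ITGB6, whose β6 subunit is epithelial and activates latent TGF-β, stood at 0.401, 0.963, 2.49 and 0.968 CPM after stretch, against 3.57, 3.46 and 4.35 CPM after doxorubicin. Here too the groups did not overlap, on counts of 3 to 23 per library (log2 fold change -1.65, SE 0.58, edgeR adjusted p = 0.132). The exons of ITGB6 share 966 bases with those of a same-strand transcript, AC092153.1, so its counts may include reads of that transcript. Where its amplicons lie is not given in the sources used here. ITGB6 had 0.0116, 0.0233, 0.0415 and 0.0157 counts per ITGB5 count after stretch and 0.168, 0.310 and 0.184 after doxorubicin. The difference in log2 ratio, stretch minus doxorubicin, was -3.38, which restates the separation of the 2 genes in opposite directions and is no further test. ITGB8, another TGF-β activating partner of αv, stood at 6.95 to 9.21 CPM after stretch, against 0.865 to 7.55 CPM after doxorubicin (log2 fold change 0.78, SE 0.48). The 0.865 CPM, in doxorubicin library 2, rest on 1 count, below detection. ITGB3, the β3 subunit of the vitronectin receptor, had 2 to 14 counts after stretch and 4 to 15 after doxorubicin (log2 fold change -2.21, SE 0.79, edgeR adjusted p = 0.133). Of its 4394 exon bases, 2266 are shared with the same-strand AC068234.1, so its counts may include reads of that transcript. ITGB2 of leukocytes stood at 2.38 to 4.07 CPM after stretch, against 1.19 to 3.59 CPM after doxorubicin, and ITGB7 had at most 10 counts in any library and was not tested.

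The start regions of 4 of the integrin genes whose group ranges did not overlap are shown, a pair with stretch above (ITGB5 and ITGA2) and a pair with doxorubicin above (ITGA4 and ITGA11), so that the control regions of genes lying on opposite sides can be read next to each other. They are from RefSeq on GRCh38.p14 and run from 250 bases before to 50 bases after a start: chr3:124901369-124901668 (minus strand, the first of 3 starts listed) for ITGB5, chr5:52989102-52989401 (plus) for ITGA2, chr2:181457136-181457435 (plus) for ITGA4 and chr15:68432114-68432413 (minus) for ITGA11. Of the 37 members, 27 had an entry, and ITGA3 was not among them. Capitals mark the GC box, GGGCGG on either strand, which zinc finger factors of the SP family bind.
ITGB5: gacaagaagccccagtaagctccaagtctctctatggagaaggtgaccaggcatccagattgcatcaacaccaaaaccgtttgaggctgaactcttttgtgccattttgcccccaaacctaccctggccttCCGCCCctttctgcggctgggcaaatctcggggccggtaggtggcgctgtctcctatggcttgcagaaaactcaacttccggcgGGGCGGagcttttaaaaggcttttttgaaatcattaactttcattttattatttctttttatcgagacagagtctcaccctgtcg
ITGA2: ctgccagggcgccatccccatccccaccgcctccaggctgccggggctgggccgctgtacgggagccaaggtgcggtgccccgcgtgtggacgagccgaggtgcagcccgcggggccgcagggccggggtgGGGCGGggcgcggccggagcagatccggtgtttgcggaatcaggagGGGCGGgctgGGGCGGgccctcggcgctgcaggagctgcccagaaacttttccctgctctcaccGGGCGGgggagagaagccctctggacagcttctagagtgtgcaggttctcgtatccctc
ITGA4: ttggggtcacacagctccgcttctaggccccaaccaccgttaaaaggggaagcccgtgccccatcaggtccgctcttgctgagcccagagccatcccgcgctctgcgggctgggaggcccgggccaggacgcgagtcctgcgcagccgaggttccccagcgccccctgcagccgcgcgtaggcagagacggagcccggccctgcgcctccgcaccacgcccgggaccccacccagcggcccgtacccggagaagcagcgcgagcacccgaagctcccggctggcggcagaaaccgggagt
ITGA11: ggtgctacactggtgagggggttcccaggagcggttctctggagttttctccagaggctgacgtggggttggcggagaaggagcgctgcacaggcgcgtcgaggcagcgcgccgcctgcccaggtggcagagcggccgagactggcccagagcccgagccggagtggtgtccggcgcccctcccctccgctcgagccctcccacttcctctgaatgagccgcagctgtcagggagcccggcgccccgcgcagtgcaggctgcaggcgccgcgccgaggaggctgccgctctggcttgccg
ITGB5 held 2 and ITGA2 held 4 GC boxes, and ITGA4 and ITGA11 held 0. Of all 35116 start regions in the table, 45.0% held at least 1. Neither the AP-1 motif TGANTCA nor the TEAD motif GGAATG, searched on both strands, was found in any of the 4 windows, beside 7.71% and 14.0% of all start regions. A match is a run of letters and not a bound site. The 4 genes were picked for their values, so the split between the pairs is no test. For ITGB5 the matches hold for the first of its 3 starts alone.

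No laminin chain passed the test in either direction among 8 tested (unadjusted p under 0.05 in 1, by edgeR). LAMA3 and LAMB3 code chains of the laminin under epithelial hemidesmosomes. LAMA3, the α3 chain, stood at 52.6, 24.4, 30.6 and 24.5 CPM after stretch, against 44.5, 38.0 and 76.7 CPM after doxorubicin (log2 fold change -0.70, SE 0.38). LAMB3, the β3 chain, stood at 1.74 to 4.49 CPM after stretch, against 3.18 to 3.59 CPM after doxorubicin (log2 fold change -0.21, SE 0.47). The groups overlapped for both chains.

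The chains of the more widespread laminins overlapped between groups. LAMC1, the γ1 chain found in most laminins, stood at 52.3, 90.3, 95.6 and 90.5 CPM after stretch, against 89.0, 112 and 70.3 CPM after doxorubicin. LAMB1, the β1 chain, stood at 41.3, 90.2, 58.4 and 91.1 CPM after stretch, against 39.7, 45.8 and 54.1 CPM after doxorubicin (log2 fold change 0.59, SE 0.35). LAMA5, the α5 chain of mature epithelial basement membranes, stood at 101, 54.1, 59.7 and 52.4 CPM after stretch, against 89.0, 65.7 and 102 CPM after doxorubicin. Stretch library 4 was the highest stretch library for LAMA3 and LAMA5 and the lowest for LAMB1 and LAMC1. The β2 chain LAMB2 stood at 11.1 to 21.9 CPM after stretch, against 8.65 to 18.5 CPM after doxorubicin, and LAMB4, a little studied chain, at 12 to 16.8 CPM after stretch, against 6.05 to 14.7 CPM after doxorubicin. LAMA1, the α1 chain of embryonic basement membranes, had 7, 4, 9 and 13 counts after stretch and 0, 0 and 1 after doxorubicin. It was too low to be tested, and 1754 of its 15872 exon bases lie opposite other transcripts. LAMC3 had at most 3 counts in any library and was not tested.

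Within single libraries, LAMB3, on few counts, stood in another proportion to LAMB1, the chain of most other laminins, in the 2 groups. LAMB3 had 0.0436, 0.0504, 0.0416 and 0.0348 counts per LAMB1 count after stretch, against 0.0846, 0.0841 and 0.0681 after doxorubicin. These rest on 13, 42, 22 and 29 LAMB3 counts after stretch and 8, 4 and 19 after doxorubicin, so their counting error is large. The log2 ratio averaged -4.57 ± 0.22 after stretch (SD, n = 4) and -3.67 ± 0.18 after doxorubicin (SD, n = 3), a difference of -0.89 with no overlap. For LAMA3 against LAMA5 the difference was -0.31 with overlap. LAMB3 to LAMB1 had an exact two-sided permutation p of 0.0571. That is the smallest p that 4 against 3 libraries allow, so it could not reach the threshold. ITGB4 to ITGB1 and LAMA3 to LAMA5 had exact permutation p of 0.114 and 0.171. These p are not adjusted for the 7 ratios computed, because an adjustment would count ratios whose separation was fixed beforehand. For ITGB6 to ITGB5, ITGA6 to ITGA3 and ITGA2 to ITGA3 no p is given, because the groups of both genes were separated in opposite directions before the ratio was taken.

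**Figure D3:**
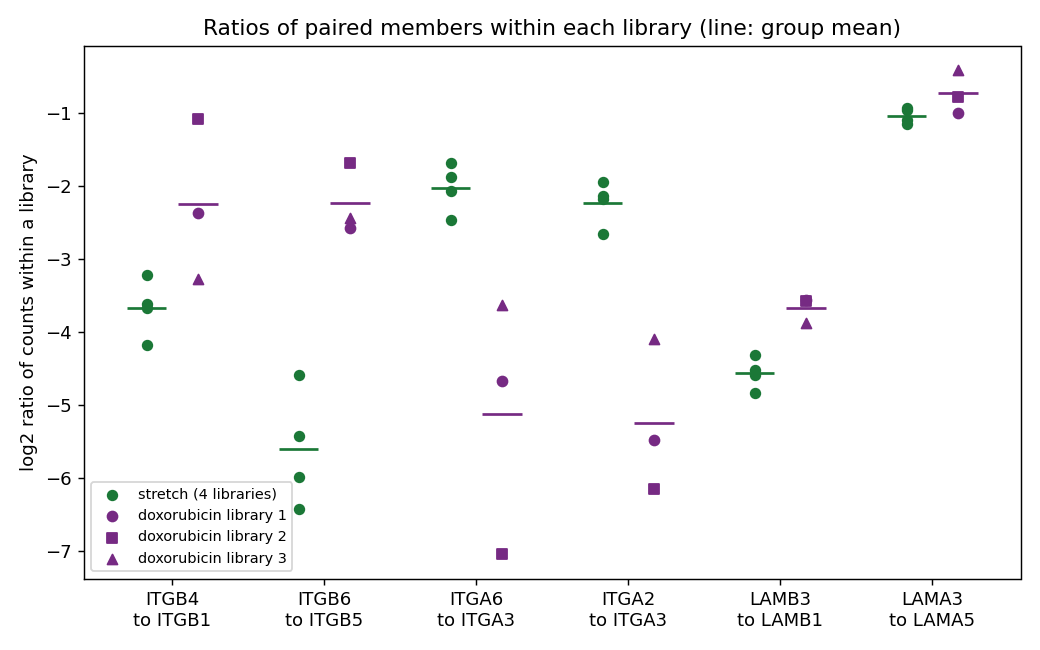
Log2 ratio of the counts of paired members within each library, for 6 of the 7 ratios (vertical axis, 0.5 added to each count), with 1 point per library, stretch left of doxorubicin, and a line at the group mean. ITGA6 to ITGA3 and ITGA2 to ITGA3 lie higher after stretch, by 3.10 and 3.02 on the log2 scale, while ITGB6 to ITGB5 and LAMB3 to LAMB1 lie lower after stretch with no overlap.

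The binding proteins overlapped between groups. ITGB1BP1, which binds the β1 tail and restrains integrin activation, stood at 60.9, 103, 104 and 95.1 CPM after stretch, against 120, 212 and 97.5 CPM after doxorubicin (log2 fold change -0.65, SE 0.35). Its log2 fold change was -0.25 without doxorubicin library 2 and -0.089 when library 3 stood alone. Its exons share 2209 bases with ASAP2 on the opposite strand. ITGB3BP, better known as a centromere protein, stood at 12.9 to 29.6 CPM after stretch, against 0 to 38.8 CPM after doxorubicin, with 32, 0 and 205 counts in doxorubicin libraries 1 to 3. ITGB1BP2, a muscle protein, had 11 to 27 counts after stretch and 0 to 8 after doxorubicin.

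The doxorubicin libraries were not alike in these genes. Of the 29 tested members, 11, 6 and 12 lay within the stretch range in doxorubicin libraries 1, 2 and 3, or 37.9%, 20.7% and 41.4%, where 29.1%, 16.7% and 43.3% of all tested genes did so. Without doxorubicin library 3, edgeR called 12 of 31 members, where it called 32.2% of all tested genes, 16% higher and 16.2% lower after stretch. ITGA2, ITGA6, ITGA10, ITGAE and ITGB5 were then higher after stretch, and 7 members lower, among them ITGA3, ITGA4, ITGA5, ITGA11, ITGAM and ITGB4. When library 3 stood alone for doxorubicin, a setting in which that library is assumed to vary like the stretch libraries, 0 of 35 members and 0.802% of all tested genes were called. In that setting ITGA10, ITGB5 and ITGA2 had log2 fold changes of 2.15, 1.14 and 0.70, beside 2.35, 1.40 and 1.14 with all libraries, and ITGB6, ITGA11 and ITGA3 of -1.80, -1.25 and -1.19, beside -1.65, -2.50 and -1.84. LAMA3 lay at -1.20 there, beside -0.30 without that library. DESeq2 called 8 of 36 members, where it called 10% of all tested genes, 3.09% higher and 6.94% lower after stretch: ITGA2, ITGA10 and ITGB5 higher after stretch, and 5 members lower, among them ITGA3, ITGA4, ITGA11 and ITGB4. The limma-voom fit with library quality weights called 17 of 29 members and 47.0% of all tested genes. ITGA3 was the 1 member called, and the share of all genes called was 2.26% with RLE factors, 1.84% with upper-quartile factors, 1.96% without a filter, 1.91% at a mean of at least 10 CPM, 1.66% with limma-voom, 2.42% without EIF4A2, 2.31% without symbols in several rows and 2.47% without doxorubicin library 2. No member was called with library totals alone, without stretch library 4, 5, 6 or 7, or without doxorubicin library 1, where edgeR called 0.116%, 0.359%, 0.146%, 0.109%, 0.109% and 0.197% of all tested genes.

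**Figure D4:**
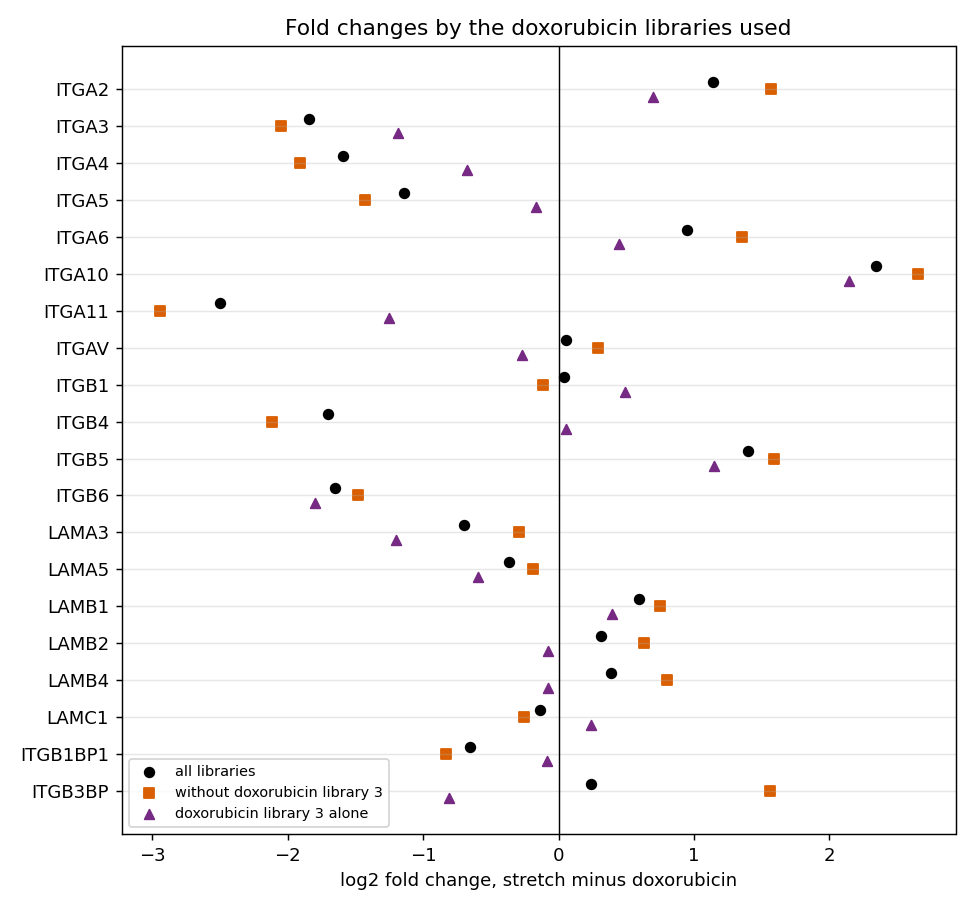
Log2 fold change, stretch minus doxorubicin (horizontal axis), of members with a mean of at least 10 CPM or groups that do not overlap, with all libraries, without doxorubicin library 3, and with that library alone. ITGB4 lies at -2.11 without library 3 and at 0.056 with it alone, while ITGB5 and ITGB6 keep their side in all 3 settings.

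Genes that work with integrins and laminins were followed through 4 lists. Of 26 tested integrin activators and focal adhesion adaptors, 0 passed in edgeR's quasi-likelihood test, where 2.32% of all tested genes passed. Their log2 fold change was below 0 in 18, with a median of -0.66, beside 51.2% above 0 and a median of 0.021 over all tested genes. The lowest adjusted p values were those of the adaptors TNS1 (2.68 ± 1.20 CPM after stretch, against 13.9 ± 7.87 CPM after doxorubicin, adjusted p = 0.0503 by edgeR) and ZYX (57.1 ± 7.18 and 142 ± 55.2 CPM, adjusted p = 0.061), and of the kinase gene SRC (83.5 ± 12.8 and 215 ± 129 CPM, adjusted p = 0.0823; SD, n = 4 and 3 throughout). Without doxorubicin library 3, 1 of 29 list members was called higher and 13 lower after stretch, where 16% and 16.2% of all tested genes were called so, and with that library alone the median was -0.12. DESeq2 called 6 of 30, all lower after stretch, where it called 6.94% of all tested genes lower. With EIF4A2 left out, edgeR called 2 of 27, with symbols in several rows left out 1 of 26, and with no filter 1 of 32. TNS1 was called each time, lower after stretch, and the share of all tested genes called was 2.42%, 2.31% and 1.96%. Of 11 tested hemidesmosome proteins, other laminin receptors and tetraspanins, 0 passed by edgeR, where 2.32% of all tested genes passed. DESeq2 called 1 of 13, lower after stretch, beside 6.94% of all tested genes. Without doxorubicin library 3, edgeR called 1 of 11 higher and 1 lower, beside 16% and 16.2% of all tested genes. CD151, the tetraspanin that binds α3β1 and α6β4, stood at 481 ± 44.3 CPM after stretch, against 1223 ± 663 CPM after doxorubicin (log2 fold change -1.35, adjusted p = 0.0741 by edgeR). Without doxorubicin library 2 its log2 fold change was -0.82, and when library 3 stood alone for doxorubicin it was -0.48. SDC1, a syndecan, and RPSA, a ribosomal protein also described as a laminin receptor, had log2 fold changes of 0.87 and -0.97. RPSA has many processed pseudogenes, so its counts are uncertain.

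In the fit in which 2.32% of all tested genes passed, 1.97% lower after stretch, 1 of 12 basement membrane partners and 1 of 17 integrin ligands passed. Of 12 tested basement membrane partners of laminin, SPARC, which binds type IV collagen, passed, lower after stretch (2.84 ± 0.728 CPM, SD, n = 4) than after doxorubicin (13.9 ± 1.44 CPM, SD, n = 3; log2 fold change -2.27, adjusted p = 0.0147 by edgeR). SPARC did not pass without stretch library 5, 6 or 7 or without doxorubicin library 1 (adjusted p from 0.071 to 0.0974 by edgeR), nor with library totals alone, and it passed when library 3 stood alone for doxorubicin. AGRN, which cross-links laminin to cell surface receptors, and NID2, which links laminin to type IV collagen, did not pass, with log2 fold changes of -1.51 and 1.505 (adjusted p = 0.0538 and 0.0683 by edgeR). Of 17 tested integrin ligands outside the laminins, MFGE8, an RGD protein that αv integrins bind, passed, at 60.1 ± 6.38 CPM after stretch (SD, n = 4), against 293 ± 155 CPM after doxorubicin (SD, n = 3; log2 fold change -2.28, adjusted p = 0.0208 by edgeR). MFGE8 did not pass without any 1 of the stretch libraries, without doxorubicin library 1, with library totals alone, or when library 3 stood alone for doxorubicin (log2 fold change -1.07). The fibrinogen chain gene FGG and the fibrillin gene FBN2 did not pass, with log2 fold changes of 2.70 and -1.14, and FGG had 52 counts in stretch library 4 beside 543 to 589 in the other stretch libraries. The medians of these 3 lists were -0.25, -0.42 and -0.49, beside 0.021 over all tested genes. When library 3 stood alone for doxorubicin, these medians lay at 0.18, -0.75 and 0.031, and without that library at -0.43, 0.075 and -0.31. Without it, edgeR called 2 of 13 basement membrane partners higher and 5 lower after stretch. Of 17 integrin ligands it called 3 higher and 5 lower, beside 16% and 16.2% of all tested genes. DESeq2 called 1 of 14 basement membrane partners higher and 3 lower. Of 20 ligands it called 1 higher and 4 lower, beside 3.09% and 6.94% of all tested genes.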

How the data were processed

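Per the labels' protocols, Trizol was used for the RNA and an Ion AmpliSeq human transcriptome kit for the libraries. The authors deposited whole numbers, read as estimated counts per gene and taken to be rounded expected counts. fastp 0.20.1, Salmon 1.9 and GRCh38 are named in the submitters' processing notes, without their roles, and what annotation, gene summing and strand setting were used is not given in the sources used here. Rows of 64 repeated symbols were summed and Metazoa_SRP, which names no gene (at most 0.00861% of a library), was left out. Alternatives used limma 3.58.1 and DESeq2 1.42.0. In edgeR 4.0.16 under R 4.3.3, genes were filtered by filterByExpr, scaled by TMM factors (1.25 to 1.33 in stretch and 0.443 to 1.14 in doxorubicin libraries) and tested by the quasi-likelihood F-test with Benjamini-Hochberg adjustment over all tested genes. Standard errors were derived from the F statistic, as |log2 fold change| over its root. On simulated data with 50 genes changed at each size, the procedure recovered 2%, 66%, 94% and 98% of 2-, 4-, 8- and 16-fold changes. Of its 138 calls there, 8 were false. A difference that did not pass is therefore no sign of equal levels, least of all near 2-fold. The simulation gave each gene the same spread in both groups, while the real doxorubicin libraries correlated less with each other than the stretch libraries. Its rates of recovery and of false calls may therefore not hold for these data. The chi-square per degree of freedom was at least 8.02 in all 21 library pairs, more than counting error alone gives, so each library counted once. That value does not show that the libraries came from separate cultures. The labels mention no molecular identifiers, and the detection level covers counting error only. The members, lists and alternatives were chosen with earlier results of these data known. Named genes were members past the threshold, members with a mean of at least 10 CPM, all others in groups, and of each partner list those past the threshold or the 3 with the lowest adjusted p. Exon overlaps come from GENCODE 29. Values of 1 tested member are not reported here.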

Additional observations from a re-analysis of the deposited data

Results flagged for a closer look

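Among the 36 sets of 4 stretch libraries looked at (29 members and 7 ratios), 2 had a library far from the other 3, and chance alone flags about 1 in 20. In LAMA5, stretch library 4 stood at 101 CPM and the other stretch libraries at 52.4 to 59.7 CPM. In LAMC1, stretch library 4 stood at 52.3 CPM and the others at 90.3 to 95.6 CPM. Groups of 3 doxorubicin libraries are too small for this check.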

How the results depend on the processing

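No paired analysis was possible because the groups share no replicate number. The count of all genes called was 261. It was 13 with library totals alone, 143 with a mean of at least 10 CPM, 1315 with DESeq2, 5276 with limma-voom and library quality weights, 99 with doxorubicin library 3 alone, and 12 to 3736 with 1 library left out. The count of members called was 1, and in the same settings 0, 1, 8, 17 (of 29), 0, and 0 to 12. Where 0 members were called, the percent of all genes called was at most 0.802%. The median of the tested members was -0.13. It was 0.64 with library totals alone, where the median of all genes was 0.71, and 0.075 with a mean of at least 10 CPM (16 members left). It was -0.033 without a filter, -0.018 with quality weights, and -0.23 to 0.043 with 1 library left out. Of the sign changes, none was in ITGA3, but ITGB2, ITGB4, ITGAM, ITGAE and LAMA5, which turned in some settings, were called in others. With library totals alone ITGA1, ITGB1BP1, LAMA5, LAMB3 and LAMC1 turned to 0.068, 0.25, 0.29, 0.46 and 0.69. With quality weights ITGB1 and ITGB1BP2 turned to -0.25 and -0.017. With doxorubicin library 3 alone ITGAE, ITGAV, ITGB2, ITGB3BP, LAMB2 and LAMB4 turned to -0.44, -0.27, -0.23, -0.81, -0.079 and -0.076, and ITGAM, ITGB4 and LAMC1 to 0.65, 0.056 and 0.24. With 1 library left out, ITGA1 ran from -0.77 to 0.59, ITGAV from -0.12 to 0.29, ITGB1 from -0.13 to 0.31, ITGB2 from -0.22 to 0.62, ITGB3BP from -0.26 to 1.56 and LAMC1 from -0.26 to 0.056. The cause was not tested. The 7 ratios kept their sign with 1 or 0.1 added to each count and with any 1 library left out.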

Other observations

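A gene outside the lists' naming rule was noticed after its values were seen. PLEC, which codes plectin, the linker between β4 integrin and keratin filaments, was listed with 158, 0, 181 and 193 counts in stretch libraries 4 to 7 and 85, 53 and 118 counts in doxorubicin libraries 1 to 3. A count of 0 in stretch library 5, a library of 7419778 counts, stands beside at least 158 in the other stretch libraries.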
